A study of Mus musculus with 32 samples.

Results

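The 40 genes described here are markers of macrophages, monocytes and neutrophils, chosen by name as known markers of these cells. The choice was made with earlier results of these data known. All 40 were found among the 25059 genes of the RNA-seq files and among the 25058 genes held by the files of all 3 assays. They were set into 6 groups by role, with 9 tissue macrophage genes, 8 scavenger receptor and C1q genes, 6 Kupffer cell and red pulp macrophage genes, 7 alveolar macrophage, monocyte and lysozyme genes, 5 mature neutrophil genes and 5 granule genes of neutrophil precursors. The animals were wild-type C57BL/6J female mice aged 6 to 7 months. Cisplatin, a platinum drug whose main adduct joins neighbouring guanines, was injected once into the peritoneum at 10 mg per kg, and controls received saline by the same route. Whole kidney, liver, lung and spleen were analysed. By the protocol the drug was given at ZT1 and the organs were taken at ZT5, which is 4 h later, whereas 2 h is given in the labels of every library. RNA-seq had 2 control and 2 cisplatin libraries per organ. Damage-seq, which maps adducts still in the DNA, and XR-seq, which sequences the short oligomers cut out during nucleotide excision repair, had 2 cisplatin libraries per organ each, and no control library of either assay was analysed here. Both count the reads of a gene apart for its transcribed strand, TS, and its non-transcribed strand, NTS.

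Macrophages are phagocytes that reside in nearly every organ and take on local tasks, among them Kupffer cells in the liver sinusoids, alveolar macrophages in the air spaces of the lung and red pulp macrophages in the spleen, which recover iron from old red blood cells. Neutrophils are short-lived phagocytes of the blood that fill their granules in an ordered way while they mature, with primary granule proteins made first and secondary granule proteins later. The transcription factor PU.1 and the factors of the C/EBP family direct the genes of both lineages. Transcribed genes can be repaired by transcription-coupled repair, which acts on the TS, as well as by global repair, which acts on both strands.

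The sequences before the start sites of 4 granule genes are given first, since these genes had the largest differences between the spleen and the other organs in the RNA-seq data, and since Camp had almost no XR-seq reads on its TS. They come from the RefSeq promoter table (GRCm38.p6), which has an entry for 33 of the 40 members. Of the 250 bases before each RefSeq start, the stretch outside the gene as GENCODE draws it is printed, 5′ to 3′ on the strand of the gene. Capitals mark a match on either strand to GAGGAA, a PU.1-type motif, or to TTGCNNAA, a C/EBP-type motif. The Mpo stretch is chr11:87793534-87793580, + strand, the Elane stretch chr10:79886062-79886246, + strand, the Ngp stretch chr9:110419558-110419746, + strand and the Camp stretch chr9:109849618-109849706, - strand.
Mpo: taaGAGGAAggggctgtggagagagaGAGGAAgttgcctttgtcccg
Elane: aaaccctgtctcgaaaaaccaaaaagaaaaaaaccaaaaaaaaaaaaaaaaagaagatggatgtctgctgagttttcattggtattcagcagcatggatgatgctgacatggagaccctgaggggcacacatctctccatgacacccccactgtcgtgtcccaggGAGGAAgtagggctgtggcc
Ngp: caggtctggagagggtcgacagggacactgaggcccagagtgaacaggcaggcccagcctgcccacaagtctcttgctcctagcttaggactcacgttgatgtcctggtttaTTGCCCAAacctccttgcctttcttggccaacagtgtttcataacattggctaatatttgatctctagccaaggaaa
Camp: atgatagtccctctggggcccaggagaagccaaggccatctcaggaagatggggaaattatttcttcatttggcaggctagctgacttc

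Mpo had 2 matches to GAGGAA, which begin at -247 and -224 relative to the RefSeq start, and Elane had 1, at -85. Ngp had 2 matches to TTGCNNAA, of which the one at -138 is in the printed stretch and the one at -11 is not. Camp had a match to neither motif in the whole 250 bases. GAGGAA was found in 17 of the 33 member promoters (51.5%) and in 7639 of 32851 promoters of the same length (23.3%). TTGCNNAA was found in 8 members (24.2%) and in 3142 of all promoters (9.56%), and both motifs in 3 members (9.09%) and 2.07% of all. These are matches of letters in a fixed window, not measured binding.

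Reads on genes numbered 15619474 to 162270280 per library in RNA-seq, 10658675 to 59779770 in XR-seq and 1571167 to 6441367 in Damage-seq. The 2 control libraries of lung, and likewise those of spleen, were nearly as alike as 2 draws of reads from 1 library (chi-square over degrees of freedom 2.75 and 2.98, against 39.3 to 349 in the other 6 RNA-seq pairs), so each pair was summed and counted as 1 sample, leaving 14 RNA-seq samples. Only RNA-seq pairs were summed in this way. Damage-seq pairs, with far fewer reads, had 1.43 to 3.11 per strand and were kept as 2 libraries. A note with the series says that the treatment labels of the lung and spleen RNA-seq libraries had been mistaken and were put right, and the labels as they now stand were used. The paper states that each experiment had 2 biological replicates. Nothing in the labels states that replicates came from separate mice, so p-values measure the spread between these samples. Markers of each organ's own cells were present: kidney tubule markers summed to 18718 to 21438 CPM in the kidney libraries, hepatocyte markers to 64543 to 153154 in liver, lung epithelium markers to 64107 to 72466 in lung and B cell markers to 2569 to 2598 in spleen. Whole organs were measured, so fewer cells of a type and less RNA per cell cannot be told apart. Differences were tested in edgeR over all genes with enough reads, and a call means a Benjamini-Hochberg adjusted p below 0.05.

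Across organs, RNA levels of the members were highest in spleen for 29 of the 40 genes, in liver for 6 and in lung for 5, and no member was highest in kidney. The kidney mean was the lowest of the 4 organs for 31 members. Levels are given as RPKM, a read level scaled to library size and to the length of the exons, which allows genes of different length to be compared. A member was called high in an organ when it passed the test against each of the 3 other organs. This held for 18 members in spleen (15.3% of all 19100 genes tested were high there), 4 in liver (9.28% of all genes), 4 in lung (9.86% of all genes) and 0 in kidney (7.65% of all genes, where 0 members had unadjusted p-values under 0.05 against all 3 other organs either). The other 14 members passed in no organ. Of the 26 calls, 22 were also made in each of the 16 fits that left out 1 library. The exceptions were Cd5l in liver, Lyz2 in lung, and Itgam and Timd4 in spleen, with adjusted p-values up to 0.0510, 0.0611, 0.0968 and 0.0842 when 1 library was left out. With the controls alone, 5 calls were lost: Cd5l (adjusted p = 0.183), Lyz2 (0.286), Cx3cr1 (0.0757), Itgam (0.308) and Retnlg (0.145). With RLE in place of TMM normalisation, Itgam (0.0511) and Timd4 (0.0632) were lost. Members with a mean below 1 RPKM numbered 3 in spleen, 9 in lung, 12 in liver and 24 in kidney.

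**Figure D1:**
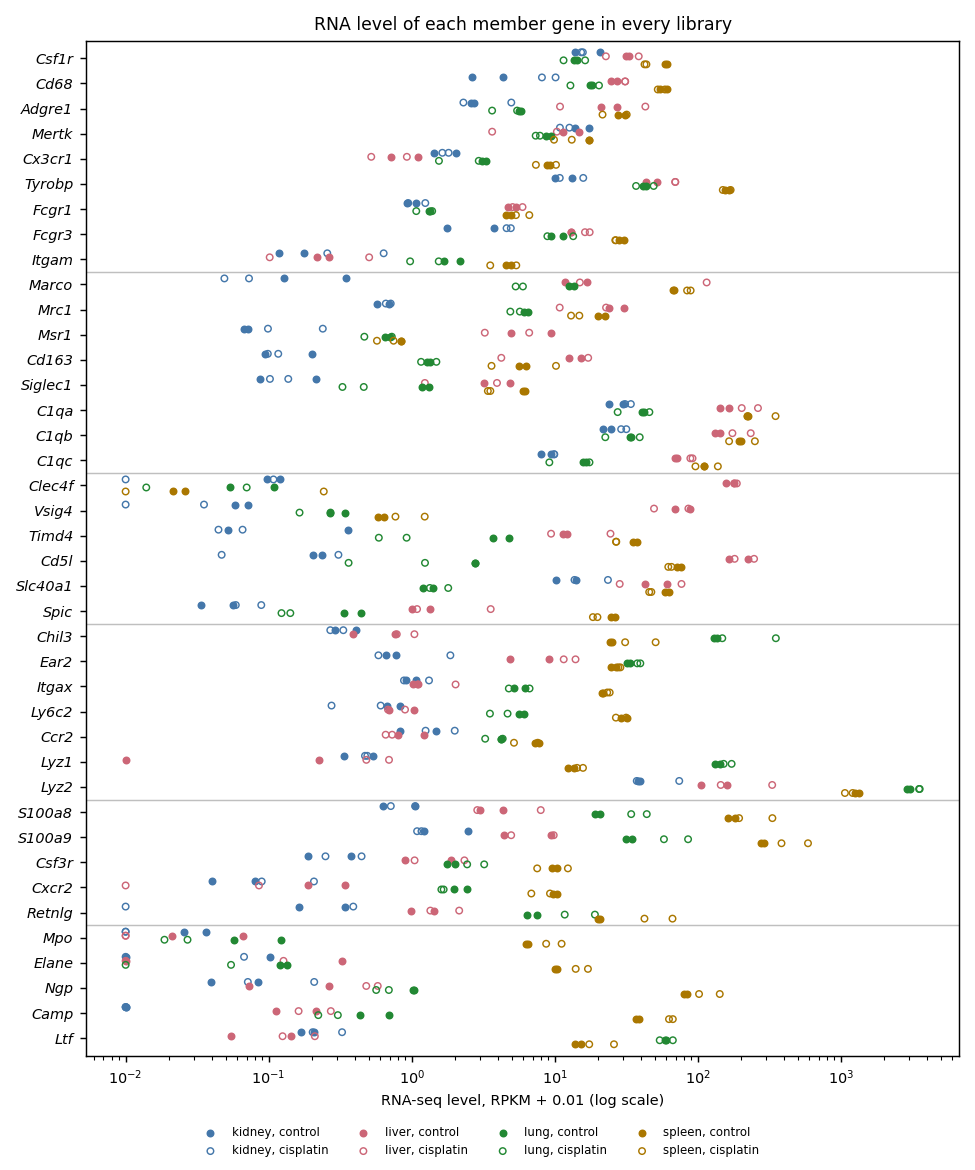
RNA-seq level of the 40 members in each of the 16 libraries, as RPKM + 0.01 on a log axis; colours are organs, filled circles controls and open circles cisplatin, and grey lines part the 6 role groups. The spleen mean is the highest for 29 members, with liver or lung libraries overlapping in several, while Clec4f, Vsig4 and Cd5l lie highest in liver and Chil3, Lyz1, Lyz2 and Ltf in lung.

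Of the 9 tissue macrophage genes, 5 were high in spleen: Cd68, Cx3cr1, Tyrobp, Fcgr3 and Itgam. Tyrobp (GRCm38, chr7:30413760-30417585), the signalling adaptor of many myeloid receptors, measured 154 and 166 RPKM in the spleen controls and 169 and 149 RPKM after cisplatin. Its level was 43.5 to 69.4 RPKM in the liver libraries, 36.9 to 49.0 in lung and 10.1 to 15.8 in kidney, so that each spleen library lay above all libraries of the other organs, 1.52 above liver on the log2 scale (adjusted p = 1.07e-04). Cd68, a lysosomal protein of macrophages, ran from 52.4 to 60.5 RPKM in spleen and from 24.9 to 31.01 in liver, with no overlap. Csf1r, the receptor for the macrophage growth factor, ran from 42.3 to 60.9 RPKM in spleen and 22.7 to 38.5 in liver and was called high in neither. Adgre1, which encodes the macrophage marker F4/80, overlapped between spleen (21.5 to 31.8 RPKM) and liver (10.9 to 42.9 RPKM). Mertk, a receptor for the uptake of dying cells, overlapped between kidney (10.8 to 17.2), liver (3.63 to 14.9) and spleen (9.85 to 17.2) RPKM, and was the 1 member of the group whose kidney and spleen values overlapped. Fcgr1, the high-affinity receptor for IgG, likewise overlapped between liver (4.70 to 5.93 RPKM) and spleen (4.54 to 6.62 RPKM). Cx3cr1 has a gene model of 168264 bp that overlaps genes on both strands, so its counts may hold reads of its neighbours.

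The 8 scavenger receptor and C1q genes had 1 high call, Msr1 in liver. Msr1, scavenger receptor A, ran from 3.23 to 9.45 RPKM in liver and stayed below 1 RPKM in every library of the other organs, 2.98 above spleen on the log2 scale (adjusted p = 1.41e-04). Mrc1, the mannose receptor, and Cd163, the receptor for haemoglobin bound to haptoglobin, overlapped between liver (10.8 to 30.6 and 4.21 to 17.1 RPKM) and spleen (12.97 to 22.3 and 3.60 to 10.2 RPKM). The 3 C1q chains, which start the classical complement pathway, lie side by side on chromosome 4 and had their highest means in spleen, with C1qc the lowest of the 3 in each organ. In spleen C1qa ran from 219 to 348 RPKM, C1qb from 165 to 249.96 and C1qc from 96.0 to 138. In liver the same chains ran from 142 to 263, 132 to 234 and 69.4 to 91.6 RPKM, so liver and spleen overlapped for C1qa and C1qb, and kidney was far lower, at 23.9 to 34.0 RPKM for C1qa. Siglec1, the sialic acid receptor CD169, ran from 1.22 to 4.86 RPKM in liver and 3.39 to 6.14 in spleen. Marco, a receptor for bacteria and particles, ran from 11.7 to 115 RPKM in liver, where cisplatin library 1 lay far above the other 3, and 67.2 to 88.9 in spleen.

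The 6 Kupffer cell and red pulp genes parted between liver and spleen. Clec4f (chr6:83644542-83656187), a lectin of Kupffer cells, measured 179.8 and 157 RPKM in the liver controls and 179 and 187 after cisplatin, and at most 0.233 RPKM in any library of the other organs. Vsig4 (chrX:96247203-96293438), a complement receptor of the same cells, measured 88.0 and 68.9 RPKM in the liver controls, 85.7 and 49.3 after cisplatin and 0.571 to 1.22 in spleen, 6.52 above spleen on the log2 scale (adjusted p = 1.97e-07). Cd5l (chr3:87357881-87371073), a secreted protein of tissue macrophages, measured 223 and 164 RPKM in the liver controls, 247 and 180.4 after cisplatin and 62.0 to 76.1 in spleen. For these 3 genes the 4 liver libraries lay above all others. In contrast, Spic, the transcription factor of red pulp macrophages, ran from 18.4 to 26.4 RPKM in spleen and 0.992 to 3.55 in liver, 3.79 above liver on the log2 scale (adjusted p = 4.16e-06). Timd4, a receptor for phosphatidylserine, ran from 26.7 to 37.2 RPKM in spleen, 9.40 to 24.5 in liver and 0.578 to 4.76 in lung, and was called high in spleen with TMM normalisation but not with RLE. Slc40a1, the iron exporter ferroportin, overlapped between liver (28.4 to 76.7 RPKM) and spleen (45.6 to 62.5) and had 10.1 to 23.5 in kidney.

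Among the 7 alveolar macrophage, monocyte and lysozyme genes, Chil3, Lyz1 and Lyz2 were high in lung and Itgax and Ly6c2 in spleen. Lyz2 (chr10:117277331-117282321), a lysozyme taken here as a macrophage marker, had the highest level of any member. It measured 2893 and 3046 RPKM in the lung controls and 3546 and 3512 after cisplatin. The values were 1065 to 1337 in spleen, 105 to 330.2 in liver and 37.3 to 74.0 in kidney. The cells that made it in whole lung were not told apart, and the 9 tissue macrophage genes had no high call in lung. Lyz1 (chr10:117287797-117292868), the lysozyme of Paneth cells and a near-identical neighbour with which reads may be shared, measured 131 and 142 RPKM in the lung controls, 151 and 172 after cisplatin and 12.3 to 15.7 in spleen. Chil3 (chr3:106147554-106167564), a chitinase-like protein of alveolar macrophages, measured 129.99 and 136 RPKM in the lung controls, 350.3 and 148 after cisplatin and 24.3 to 50.6 in spleen, so that lung and spleen did not overlap. Itgax, the integrin CD11c, ran from 21.2 to 24.2 RPKM in spleen and 4.76 to 6.65 in lung. Ear2, a ribonuclease of a large gene family, ran from 32.1 to 39.6 RPKM in lung and 24.8 to 28.7 in spleen, which did not overlap but did not pass the test. Ccr2, the chemokine receptor of inflammatory monocytes, ran from 5.17 to 7.75 RPKM in spleen and 3.25 to 4.31 in lung and passed in neither.

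The 5 mature neutrophil genes were all high in spleen. S100a9 (chr3:90692632-90695721) and S100a8 (chr3:90668978-90670035), which form the calcium-binding dimer calprotectin, had the highest values of the group. S100a9 measured 275 and 291 RPKM in the spleen controls and 384 and 588 after cisplatin, and 31.6 to 85.3 in lung, 2.93 above lung on the log2 scale (adjusted p = 1.55e-04). S100a8 measured 161 and 180.4 RPKM in the spleen controls, 194 and 331 after cisplatin and 19.1 to 43.9 in lung. In both genes all spleen libraries lay above all lung libraries, and liver (at most 9.81 and 7.96 RPKM) and kidney (at most 2.45 and 1.05) were lower still. Csf3r, the receptor for G-CSF, Cxcr2, which guides neutrophils along chemokines, and Retnlg, a resistin-like protein, exceeded lung by 2.15, 2.30 and 1.68 on the log2 scale.

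Of the 5 granule genes, Mpo, Elane, Ngp and Camp were high in spleen and Ltf in lung. Mpo, myeloperoxidase, and Elane, neutrophil elastase, are primary granule proteins, and ran from 6.28 to 11.1 and 10.1 to 17.0 RPKM in spleen, 8.02 above lung and 7.10 above liver on the log2 scale. Ngp and Camp, which belong to the secondary granules, ran from 79.9 to 142 and 37.1 to 66.7 RPKM in spleen, 7.004 and 7.15 above lung. Outside the spleen these 4 genes stayed at or below 1.02 RPKM, and Camp had 0 reads in each of the 4 kidney libraries. Ltf, lactoferrin, which epithelia also secrete, ran from 54.0 to 66.7 RPKM in lung and 13.8 to 25.9 in spleen, 1.73 above spleen on the log2 scale (adjusted p = 9.72e-04), and thus did not share the organ of the other granule genes.

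The response of the members to cisplatin was tested within each organ against a log2 change of 0.4. Values are given as CPM, counts scaled to library size and normalised within an organ. In kidney, 0 of the 29 members tested passed, beside 5.05% of 15471 genes. With unadjusted p-values under 0.05 there were 2 members and 2937 genes, and DESeq2 called 0 members. The other 11 members had too few reads to be tested. The median log2 change was 0.18 over these members and -0.00 over all genes, with 20 members above 0 and 9 below.

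Cd68 had the smallest p in kidney, with 3.51 and 5.59 CPM in controls and 13.4 and 10.6 CPM after cisplatin, a log2 difference of 1.38 (SE 0.32, adjusted p = 0.0848). Both cisplatin libraries lay above both controls. Against a change of 0 its adjusted p was 0.0442, and without control replicate 2, where 4.54% of all genes were higher, the difference was 1.77 (adjusted p = 0.00736). Itgam, the integrin CD11b, measured 0.585 and 0.871 CPM in controls and 3.32 and 1.29 CPM after cisplatin, a difference of 1.59 (SE 0.60, adjusted p = 0.247). Msr1 measured 0.390 and 0.407 CPM and 1.53 and 0.588 CPM, with a difference of 1.33 (SE 0.67, adjusted p = 0.405). For both genes the groups did not overlap, but the cisplatin libraries were far apart. Fcgr3, a low-affinity receptor for IgG, measured 3.26 and 6.69 CPM in controls and 9.01 and 8.31 CPM after cisplatin, a difference of 0.78 (SE 0.38, adjusted p = 0.451), again without overlap. Without control replicate 2, Fcgr3 passed as well, at 1.41 (adjusted p = 0.0466).

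A further 63 genes of the myeloid pathway comprise growth factors, receptors and regulators, other macrophage and neutrophil genes, chemoattractants, and genes of dendritic cells, mast cells, basophils and eosinophils. In kidney 47 of them were tested and 4 rose, beside 372 of all 15471 genes. Lgals3, the lectin galectin-3, measured 32.5 and 41.4 CPM in controls and 142 and 139 CPM after cisplatin, a log2 change of 1.93 (SE 0.19, adjusted p = 0.01004). Cebpb, a C/EBP factor, rose by 2.36 (SE 0.25, adjusted p = 0.0127) from 4.68 and 4.78 to 28.0 and 20.6 CPM. Klf4, a transcription factor of monocytes that epithelia and endothelium also use, rose by 1.80 (SE 0.19, adjusted p = 0.0137) from 13.6 and 11.5 to 42.4 and 45.004 CPM. Cxcl1, a neutrophil chemoattractant, rose by 3.73 (SE 0.58, adjusted p = 0.0251) from 0.292 and 0.148 to 3.32 and 2.22 CPM. In each of the 4 genes both cisplatin libraries exceeded both controls. None of them is made by myeloid cells alone.

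In liver, 0 of 37 members tested passed, as did 0% of 13868 genes. With unadjusted p-values under 0.05 there were 1 member and 1287 genes, and DESeq2 called 0 members. The members' median log2 change was 0.32, against 0.03 over all genes. Marco had the smallest p, with 18.6 and 13.2 CPM in controls and 129 and 16.9 CPM after cisplatin, a log2 difference of 2.20 (SE 0.82, adjusted p = 0.472). The difference came from cisplatin library 1 alone, since library 2 lay between the controls. Cxcr2 measured 0.578 and 0.314 CPM in controls and 0 and 0.135 CPM after cisplatin, a difference of -2.74 (SE 1.16, adjusted p = 0.548). Lyz1 measured 0 and 0.157 CPM and 0.348 and 0.508 CPM (log2 difference 2.40, SE 1.16, adjusted p = 0.657). Ngp measured 0.178 and 0.0449 CPM and 0.406 and 0.338 CPM (log2 difference 1.71, SE 0.88, adjusted p = 0.710). Their groups did not overlap, but all values of these 3 genes were below 1 CPM.

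The 2 liver cisplatin libraries went different ways. Without cisplatin library 1, the 5 macrophage genes Adgre1 (-1.15, adjusted p = 0.0442), Mertk (-1.85, 0.00146), Mrc1 (-1.34, 0.0319), Cd163 (-1.73, 0.00255) and Siglec1 (-1.71, 0.00594) passed the test as lower, 5 of 37 tested beside 9% of all genes, whereas without library 2 Marco passed as higher, beside 0.396% of all genes (3.02, adjusted p = 8.28e-05). Each of these fits has a single cisplatin library, which is assumed to vary as the controls do. The liver controls were also apart over all genes (chi-square over degrees of freedom 349, and 241 for the cisplatin pair). Hepatocyte markers summed to 64543 and 143000 CPM in controls 1 and 2. Among the further myeloid genes, Lcn2 measured 703 and 7.63 CPM and Prtn3 15.5 and 0.180 CPM there. Adgre1 itself measured 50.4 and 39.9 CPM in the liver controls and 81.1 and 20.7 CPM in cisplatin libraries 1 and 2, so the cisplatin libraries lay on either side of the controls. The 3 endothelial markers summed to 165 and 167 CPM in the liver controls and to 173 and 78.3 CPM in cisplatin libraries 1 and 2, so that they too were lowest in library 2. Their part in the lower values of the macrophage genes was not tested. Of the 63 further myeloid genes 0 passed in liver with all libraries in the fit.

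In lung, all 40 members were tested and 1 fell, Timd4, beside 1.96% of 18210 genes that were lower. No member rose, beside 0.132% of genes that were higher. With unadjusted p-values under 0.05 there were 9 members and 2373 genes. DESeq2 called 3 members lower (2.06% of all genes), Timd4, Marco and Siglec1, and 0 higher. Timd4 (chr11:46810800-46844332) measured 10.7 and 13.3 CPM in controls and 2.54 and 1.61 CPM after cisplatin, and fell by 2.62 on the log2 scale (SE 0.35, adjusted p = 0.0265). Both cisplatin libraries lay far below both controls. The test rested on 1 summed control sample and 2 cisplatin samples, and in 1 fit over all organs the difference was -2.63 with an adjusted p of 0.139. Removing cisplatin replicate 1 or 2 from that fit gave adjusted p-values of 0.376 and 0.876.

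Marco measured 32.4 and 33.9 CPM in the lung controls and 14.8 and 13.1 CPM after cisplatin, a log2 difference of -1.27 (SE 0.21, adjusted p = 0.0596). Siglec1 measured 11.1 and 12.1 CPM and 4.15 and 2.90 CPM, a difference of -1.75 (SE 0.32, adjusted p = 0.0646). Spic measured 1.67 and 2.15 CPM and 0.650 and 0.554 CPM, a difference of -1.75 (SE 0.43, adjusted p = 0.140). In all 3 the groups did not overlap, with the cisplatin libraries below. Tested against a change of 0, which called 3.95% of all genes lower, Marco and Siglec1 passed (adjusted p = 0.0292 and 0.0382). The 6 Kupffer cell and red pulp genes had a median log2 change of -1.72 in lung (1 above 0, 5 below), and the 5 mature neutrophil genes had 0.93 (4 above 0, 1 below), against -0.21 for all members and 0.03 for all genes. S100a8 measured 17.7 and 18.4 CPM in the lung controls and 30.5 and 38.9 CPM after cisplatin, and S100a9 measured 22.0 and 23.4 and 38.8 and 56.9 CPM. Neither gene passed, although both cisplatin libraries lay above the controls. Chil3, the alveolar macrophage gene, measured 283 and 286 CPM in controls and 736 and 309 CPM after cisplatin.

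Markers of other cell types moved along in lung. The summed level of 4 B cell markers was 288 to 294 CPM in the controls and 69.2 to 91.3 CPM after cisplatin, and 4 of 4 fell. That of 5 T and NK cell markers was 101 to 104 and 24.1 to 28.1 CPM, with 5 of 5 below both controls and 4 called. The 7 erythroid markers summed to 7933 to 8318 and 3412 to 4375 CPM, with 6 of 7 below. The 5 hepatocyte markers summed to 119 to 150.5 CPM in controls and 20.1 to 76.2 CPM after cisplatin and the 5 kidney tubule markers to 56.1 to 58.5 and 1.23 to 8.03 CPM, and in each list 4 of 5 were below both controls, whereas the 4 lung epithelium markers had 64239.6 to 64487 and 64107 to 72466 CPM. Ms4a1, the B cell antigen CD20, measured 91.3 and 95.6 CPM in controls and 27.4 and 20.9 CPM after cisplatin (log2 difference -1.97, SE 0.20, adjusted p = 0.0190). Cd8a and Cd4, the T cell coreceptors, fell by 2.30 and 1.97 on the log2 scale. Among the further myeloid genes, the C/EBP factor Cebpd rose (1.40), and Pparg, a nuclear receptor of alveolar macrophages and fat cells, fell (log2 difference -1.83, SE 0.21, adjusted p = 0.0225). The part of these other cells in the lower levels of Timd4, Marco, Siglec1 and Spic was not tested.

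In spleen, 0 of the 40 members passed, beside 0.181% of 17686 genes. With unadjusted p-values under 0.05 there were 3 members and 768 genes, and DESeq2 called 0 members. Retnlg had the smallest p, with 15.5 and 15.2 CPM in controls and 32.1 and 48.9 CPM after cisplatin, a log2 difference of 1.41 (SE 0.31, adjusted p = 0.825). Siglec1 measured 55.3 and 53.8 CPM and 32.3 and 30.1 CPM, a difference of -0.81 (SE 0.15, adjusted p = 0.856). Camp measured 38.1 and 34.5 CPM and 60.9 and 62.9 CPM (log2 difference 0.79, SE 0.16, adjusted p = 0.908). Mrc1 measured 166 and 174 CPM and 106 and 117 CPM (log2 difference -0.63, SE 0.17, adjusted p = 1.000). In these 4 genes the controls and the cisplatin libraries did not overlap, with Retnlg and Camp above the controls and Siglec1 and Mrc1 below. Their groups did not move as one. Of the 5 mature neutrophil genes, 3 lay above both controls in both cisplatin libraries and 1 below. Among the 8 scavenger receptor and C1q genes, 1 lay above and 3 below, as did 1 and 3 of the 9 tissue macrophage genes. The 7 alveolar macrophage, monocyte and lysozyme genes had 4 above and 1 below. Of the 6 Kupffer cell and red pulp genes, 4 lay below and 1 above. Their summed level was 1093 to 1105 CPM in the controls and 847 to 872 CPM after cisplatin. All 5 granule genes had values above 0, from 0.56 to 0.79, and each was higher in both cisplatin libraries than in both controls, although 0 of 5 passed.

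The spleen cisplatin libraries also held markers of the exocrine pancreas, an organ that touches the spleen. Their summed level was 0.431 to 0.459 CPM in the controls and 1091 to 1543 CPM after cisplatin, and 5 of 5 rose, among them Cela3b (log2 change 12.84), Ctrb1 (12.35), Prss2 (9.64) and Cpa1 (12.72), which encode digestive enzymes. Erythroid markers summed to 10688 to 11138 CPM in the controls and 7462 to 20387 CPM after cisplatin, with the 2 cisplatin libraries on either side of the controls. Hepatocyte markers summed to 387 and 2.83 CPM in cisplatin libraries 1 and 2, and to 12.4 to 33.2 CPM in the controls. Kidney tubule markers summed to 25.3 and 3.25 CPM, and to 2.33 to 13.2 CPM in the controls. Lung epithelium markers had 20.9 to 22.3 CPM after cisplatin and 8.04 to 8.70 CPM in the controls. The part of any of these tissues in the values of the members was not tested. Of the 63 further myeloid genes, 0 passed in spleen.

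**Figure D2:**
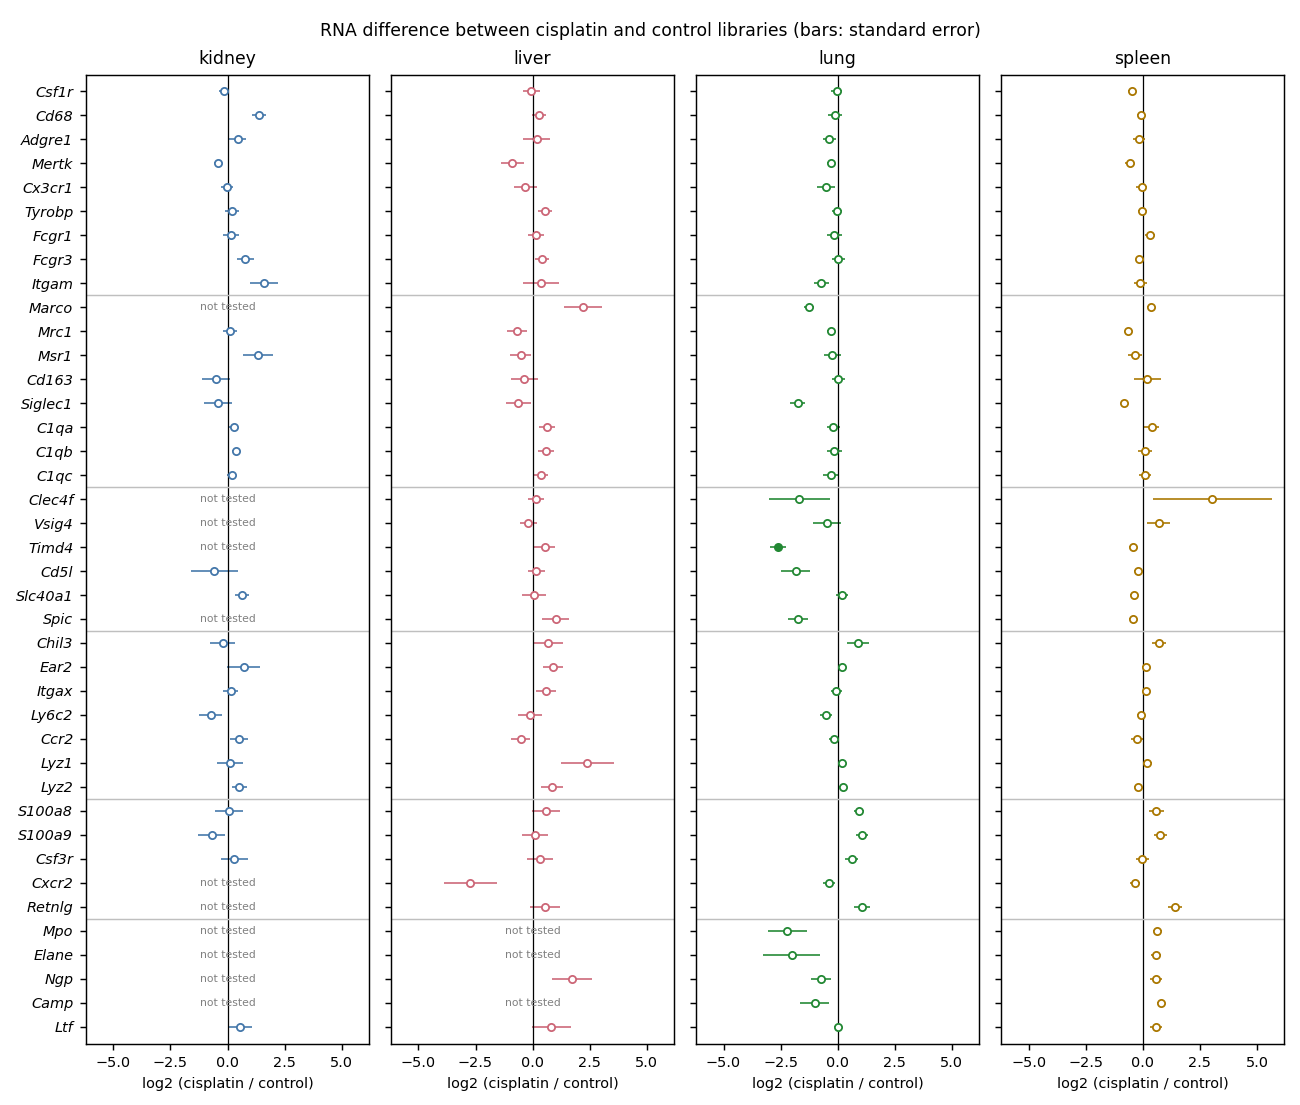
Log2 difference between cisplatin and control for each member in the 4 organs, with bars of 1 standard error and a filled circle for a call; members with too few reads are marked as not tested. Timd4 in lung, at -2.62, is the 1 filled circle.

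**Figure D3:**
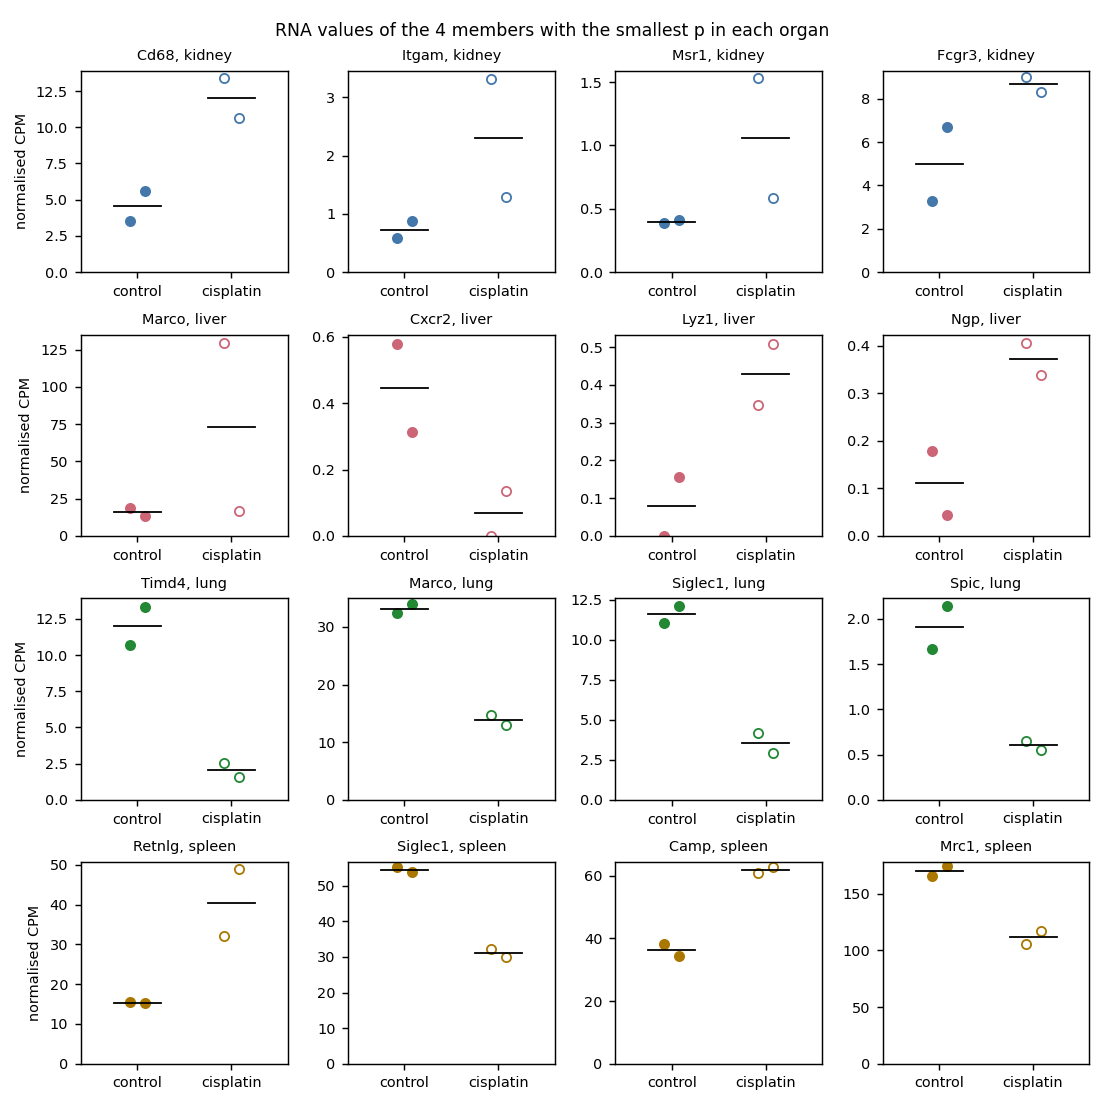
Normalised CPM on a linear axis from 0 in every library for the 4 members with the smallest p in each organ, with filled circles for controls, open circles for cisplatin and lines for the means. The groups are apart in each panel except Marco in liver, where 1 cisplatin library lies at 129 CPM and the other at 16.9 CPM between the controls.

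Whether the response of a member differed between organs was tested as the difference of the 2 log2 changes in the fit over all organs. Of 40 members, 0 passed for kidney against liver (0.0733% of 19100 genes passed), kidney against lung (0.12%), kidney against spleen (0.304%), liver against lung (0%), liver against spleen (0.0366%) or lung against spleen (0.0105%). With unadjusted p-values under 0.05 there were 6, 3, 2, 7, 4 and 3 members in the same order. Over all 19100 genes the numbers were 1359, 1408, 1669, 1292, 1313 and 812. This difference between organs was not tested in DESeq2. The smallest p belonged to Timd4, whose log2 change in liver exceeded that in lung by 3.14 (SE 0.79, adjusted p = 0.377). Cd68 in kidney exceeded its change in spleen by 1.51 (adjusted p = 0.253) and in lung by 1.499 (adjusted p = 0.359). Neither the lung value of Timd4 nor the kidney value of Cd68 was shown to be particular to its organ.

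XR-seq of the members was thin. In kidney replicate 1, 25 of the 40 members had 0 reads on the TS, and in the other libraries 0 to 10 members did. Levels are given as RPM, reads scaled to all reads of a library on genes, per 1000 GG dinucleotides of the strand, the sites where the main adduct can form. The median member had 3.39 and 2.10 on the TS in the spleen replicates, where the median of all genes was 5.69 and 6.01. In lung the median member had 0.835 and 0.861 and the median gene 4.79 and 4.83, in liver they had 0.737 and 0.737 and 5.13 and 5.78, and in kidney 0 and 0.486 and 6.60 and 6.49. The members were thus below the median gene in each library and nearest to it in spleen, the organ with the highest RNA levels of most members.

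The TS and NTS of a gene were compared in edgeR with the library as a block and the GG counts as offset, for the 37 members with enough reads. In kidney 4 members had higher TS repair (55.4% of all genes did) and 2 higher NTS repair (5.21%). In liver the counts were 3 (50.4%) and 2 (6.05%), in lung 6 (58.1%) and 2 (6.45%), and in spleen 7 (56.8%) and 1 (6.13%). The median log2 ratio of TS to NTS over these members was 2.46 in spleen, where it was 2.90 over all genes. It was 1.31 in lung (2.94 over all genes), 1.16 in liver (1.92) and 0.84 in kidney (2.54). The medians include members with few reads, and the counts rest on single libraries. For higher TS repair, the kidney count was 11 without kidney replicate 2, the liver count was 8 without either kidney replicate and 1 without either liver replicate, and the lung count was 12 and 13 without kidney replicates 1 and 2 and 3 without lung replicate 1. The spleen count was 14 without either kidney replicate, 4 without either liver replicate and 3 without either spleen replicate. For higher NTS repair, the kidney count was 0 and 5 without kidney replicates 1 and 2 and 1 without either spleen replicate, and the liver count was 1 without liver replicate 1. The lung count was 3 without either kidney replicate, 0 without lung replicate 1 and 1 without lung replicate 2 or either spleen replicate, and the spleen count was 0 without either spleen replicate. Of the 27 calls, 12 were also made in each of the 8 fits that left out 1 library. They were Mertk in the 4 organs, Slc40a1 in kidney, lung and spleen, Cx3cr1 in kidney and lung, Cd68 in kidney, Siglec1 in spleen and Csf1r in liver.

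**Figure D4:**
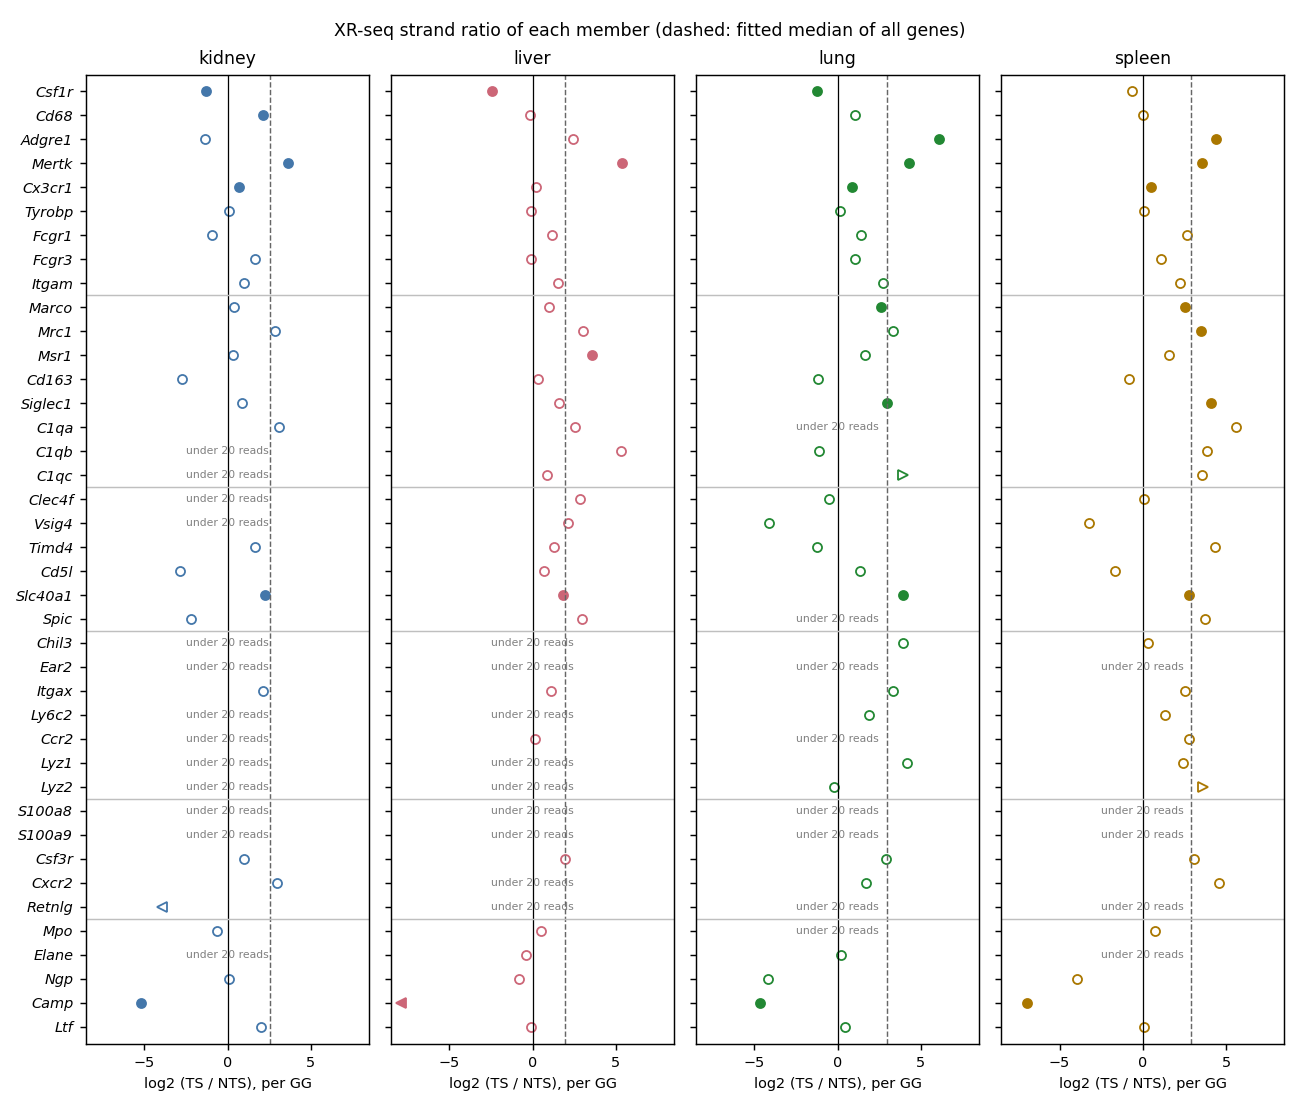
For each member, the XR-seq reads per GG on the TS over those on the NTS, as log2 and with both replicates summed; filled symbols are calls, triangles mark a strand at 0 reads where the value is a bound, and the dashed line is the median of all genes. Mertk and Slc40a1 lie to the right as filled symbols in the 4 organs and Camp to the left in the 4 organs.

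Mertk (chr2:128698956-128802894) was the deepest member in XR-seq apart from Cx3cr1, whose span takes in other genes. In liver it had 18153 and 14144 TS reads against 416 and 321 NTS reads, a log2 difference of 5.34 (SE 0.24, adjusted p = 1.34e-06). Kidney had 2708 and 4658 TS reads against 254 and 300 NTS reads, a difference of 3.58 (SE 0.22, adjusted p = 4.42e-06). Lung had 15364 and 9954 TS reads against 618 and 576 NTS reads (log2 difference 4.26, SE 0.23, adjusted p = 1.15e-06), and spleen had 895 and 2883 TS reads against 60 and 232 NTS reads (log2 difference 3.65, SE 0.23, adjusted p = 2.68e-06). In each of the 8 libraries the TS held several times the reads of the NTS.

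Slc40a1, the iron exporter, was the other member with higher TS repair in the 4 organs, with log2 differences of 2.25 (SE 0.46, adjusted p = 0.00284) in kidney, 1.83 (SE 0.45, adjusted p = 0.00788) in liver, 3.84 (SE 0.50, adjusted p = 1.65e-04) in lung and 2.62 (SE 0.48, adjusted p = 0.00140) in spleen. The liver call was lost without either liver replicate (largest adjusted p = 0.119). Adgre1 had the highest ratio in lung, where it had 336 and 213 TS reads against 0 and 8 NTS reads and a TS to NTS ratio per GG of 66.7 (log2 difference 6.33, SE 1.81, adjusted p = 0.0139). That call was lost without lung replicate 1 (adjusted p = 0.108). Among members with at least 20 reads, C1qa had the second highest ratio in kidney and the highest in spleen, with 43 and 3 TS reads against 0 and 7 NTS reads in kidney and 21 and 54 TS reads against 0 and 2 NTS reads in spleen. C1qb followed Mertk in liver, with 22 and 39 TS reads against 0 and 2 NTS reads. Cxcr2 had 0 and 27 TS reads against 0 and 1 NTS reads in spleen. The reads of C1qa, C1qb and Cxcr2 lay mostly on the TS, but with so few reads none of them passed.

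Camp (chr9:109847379-109849617, minus strand) had its reads on the other strand. In liver it had 0 and 0 TS reads against 497 and 395 NTS reads, an NTS to TS ratio per GG of at least 242 when 3 reads over both libraries are taken as the floor of the TS. Kidney had 0 and 6 TS reads against 173 and 102 NTS reads, lung 0 and 10 TS reads against 167 and 145 NTS reads and spleen 0 and 1 TS reads against 25 and 129 NTS reads. The NTS was higher in each of the 8 libraries and the difference was called in the 4 organs, with adjusted p-values from 0.00466 to 0.0292, although each of these calls was lost in at least 1 fit without 1 library (adjusted p up to 0.167 in lung). The RNA of Camp was high in spleen and at 0 reads in kidney, while its NTS level in XR-seq was 42.5 and 42.3 in the liver libraries, 42.3 and 16.5 in those of kidney, 10.6 and 16.8 in those of spleen and 12.6 and 15.3 in those of lung. No gene of the annotation overlaps Camp on the other strand.

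Ngp, another secondary granule gene on the same chromosome, had 1 and 6 TS reads against 45 and 50 NTS reads in lung and 0 and 9 TS reads against 0 and 104 NTS reads in spleen, NTS to TS ratios of 17.9 and 15.3. In kidney its replicates went opposite ways (38 and 17 TS reads against 0 and 39 NTS reads), and it passed in no organ. Retnlg had 0 and 0 TS reads against 34 and 0 NTS reads in kidney, all from 1 library. Csf1r had higher NTS repair in kidney, liver and lung, with 190 and 187 TS reads against 1407 and 1069 NTS reads in liver (log2 difference -2.43, SE 0.41, adjusted p = 0.00103). The kidney call of Csf1r was lost without kidney replicate 1 (adjusted p = 0.102) and its lung call without either lung replicate (up to 0.187). Csf1r overlaps Hmgxb3 on the other strand over 2.77% of its length, so reads counted on its NTS can belong to Hmgxb3.

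XR-seq levels were then compared between organs, by the same rule as RNA levels. On the TS, 35 members were tested and 4 were high in spleen (2.82% of all genes), 1 in liver (8.15%), 0 in lung (2.16%) and 0 in kidney (2.34%). With unadjusted p-values under 0.05 the counts were 5, 1, 0 and 0, and over all 19731 genes 805, 2075, 575 and 683. Itgam had 4.76 and 4.52 RPM per 1000 GG in the spleen replicates, against 0.976 and 0.760 in lung, 0.874 and 1.16 in liver and 0.380 and 0.355 in kidney, 1.93 above liver on the log2 scale (adjusted p = 0.00522). Itgax had 8.97 and 8.48 in spleen and 2.40 and 1.84 in lung, 2.07 above lung on the log2 scale (adjusted p = 0.0315). Both spleen replicates lay above all 6 other libraries for these 2 integrins, which lie close together on chromosome 7.

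Siglec1 had 8.55 and 6.98 in spleen and 2.43 and 2.42 in lung, 1.71 above lung on the log2 scale (adjusted p = 0.0423). Csf3r had 3.91 and 7.72 in spleen and 1.36 and 1.09 in liver, 1.99 above liver on the log2 scale (adjusted p = 0.0451). For both genes the spleen replicates again lay above all other libraries. Mertk went the other way, with 54.1 and 52.8 in liver, 40.4 and 36.7 in lung, 23.1 and 26.2 in kidney and 13.2 and 13.1 in spleen. It was high in liver, 0.76 above lung on the log2 scale (adjusted p = 0.00227), and lower in spleen than in each other organ, while its RNA overlapped between spleen and liver. These calls rest on 2 libraries per organ: without liver replicate 1, 0 of the 4 spleen calls passed, and leaving out any of the other liver, lung or spleen libraries left 1 or 2. Mertk in liver passed in each of these fits.

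Of the 35 members in both fits, 14 were high in spleen by RNA and 4 by TS repair, and 3 of these were in both lists, which is 21.4% of the RNA list and 75% of the repair list. Over all 17751 genes in both fits the shares were 16.9% and 74.8%. In liver 4 members were high by RNA and 1 by repair, with 0 in common, where all genes had 33.6% and 37.0%. On the NTS, 29 members were tested and 1 was high in any organ (3.99% of all genes), Cd5l in spleen, with 11.4 and 16.9 in spleen and at most 1.48 in any other library, which is 4.80 above kidney on the log2 scale (adjusted p = 0.0213). Its RNA was high in liver and not in spleen. The Cd5l call was lost in each fit without a liver, lung or spleen library (adjusted p up to 0.161), while 2 members passed without either kidney replicate.

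The Damage-seq level of the median member varied far less between libraries than its XR-seq level. Scaling to each library removes any difference in total damage between organs, as does the normalisation in the organ test. The paper found the most adducts in kidney and the fewest in spleen, by Damage-seq and by immuno-slot blot. Single members with few reads varied more, as S100a8 did from 0 to 38.1. The median member had 6.97 to 9.54 RPM per 1000 GG over the 8 libraries and both strands, and the median of all genes was 6.24 to 9.34. No member was called high in an organ, among 34 tested on the TS (0.501% of all genes were high in any organ) and 35 on the NTS (0.286%), and 0 had an unadjusted p under 0.05 against all 3 other organs. DESeq2 was not run on this comparison. Reads in all members together numbered 749 to 3668 per library and strand.

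Between strands, 36 members were tested. Damage was higher on the NTS for 0 members in kidney (20.9% of all genes), 2 in liver (32.7%), 1 in lung (27.1%) and 0 in spleen (13.1%), and higher on the TS for 0 members in the 4 organs. With unadjusted p-values under 0.05 in either direction there were 1 member in spleen, 5 in lung, 3 in liver and 3 in kidney. Over all 20831 genes the numbers were 5271, 7666, 8098 and 6293 in the same order. DESeq2 was not run on the strands. Mertk had 162 and 82 TS reads against 257 and 168 NTS reads in liver, a log2 difference of -0.93 (SE 0.14, adjusted p = 2.87e-08), and 245 and 249 TS reads against 292 and 370 NTS reads in lung, a difference of -0.53 (SE 0.12, adjusted p = 2.59e-04). The NTS was above the TS in each of these 4 libraries, the reverse of the order of its repair reads. Siglec1 had 29 and 20 TS reads against 49 and 35 NTS reads in liver (log2 difference -0.82, SE 0.31, adjusted p = 0.0283). The Mertk call in liver was made in each fit that left out 1 library, whereas its lung call was lost without lung replicate 2 (adjusted p = 0.109) and the Siglec1 call without either liver replicate (up to 0.252). The median log2 difference over members was -0.19 in spleen (-0.23 over all genes), -0.12 in liver (-0.35), -0.10 in kidney (-0.21) and 0.02 in lung (-0.26).

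**Figure D5:**
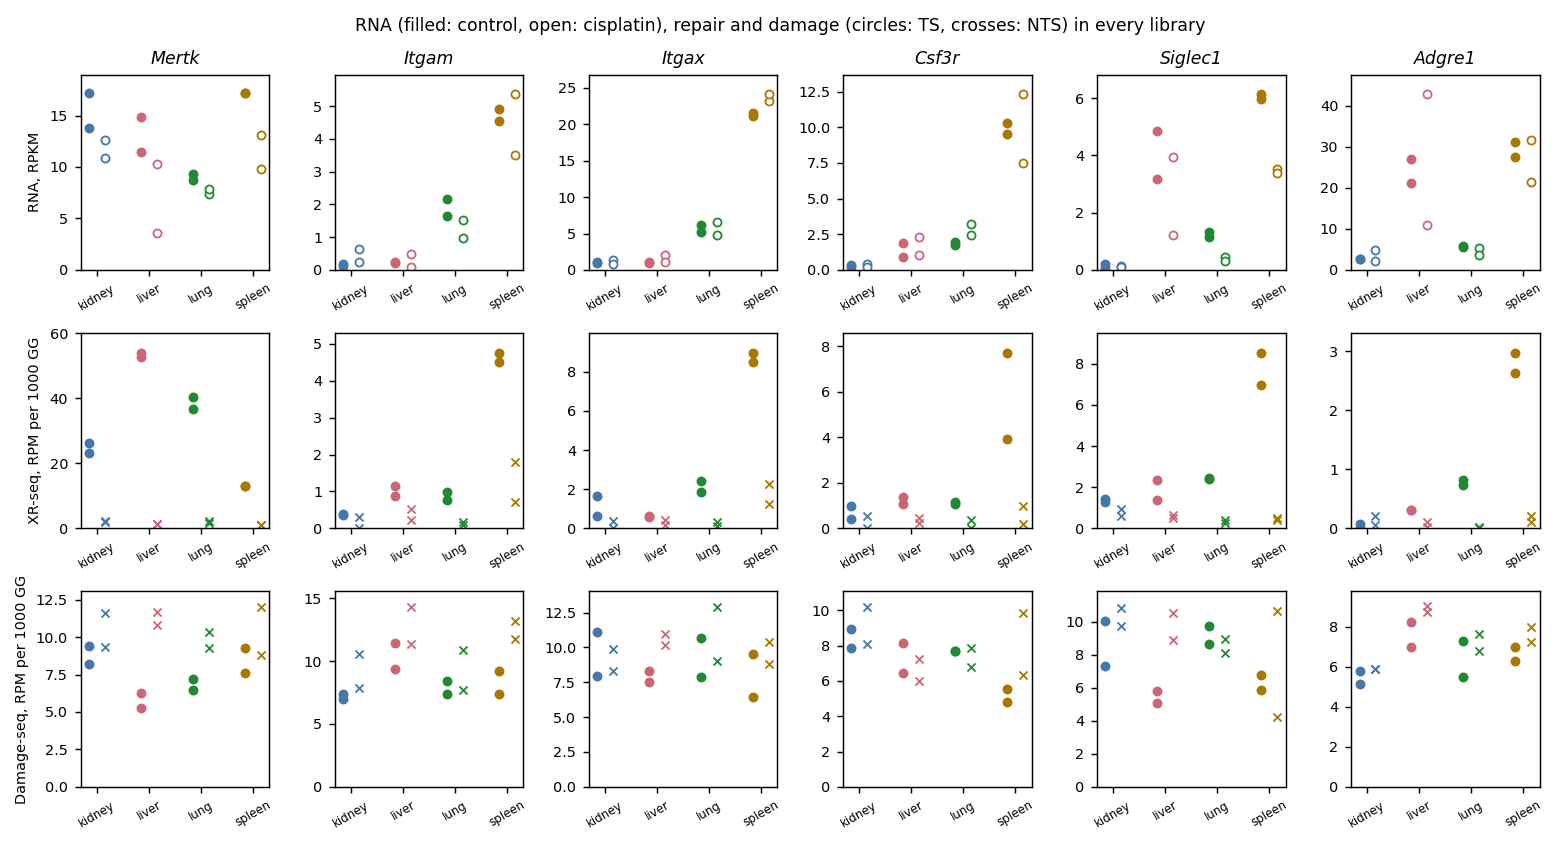
RNA (RPKM; filled circles controls, open circles cisplatin), XR-seq and Damage-seq (RPM per 1000 GG; circles TS, crosses NTS) in every library for 6 members, on linear axes from 0. Itgam, Itgax, Csf3r and Siglec1 have their highest TS repair in spleen and Mertk has its highest in liver. Damage-seq values, which are scaled to each library, differ between organs by smaller factors than TS repair.

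Not every member could be followed in all 3 assays. Ear2 has the shortest gene model (881 bp) and had 32.1 to 39.6 RPKM in lung, but 0 to 3 XR-seq reads and 0 to 2 Damage-seq reads per library and strand, and overlaps an annotated gene on the other strand over its whole length. S100a8 and S100a9, among the highest in RNA, had at most 8 XR-seq reads per library and strand. Members with at least 20 XR-seq reads over both replicates and strands numbered 35 in spleen, 32 in lung, 31 in liver and 27 in kidney. Mpo overlaps a gene on the other strand over 49.5% of its length.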

How the data were processed

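Female C57BL/6J mice received cisplatin or saline, and RNA-seq, XR-seq and Damage-seq libraries were made from kidney, liver, lung and spleen. The authors aligned RNA-seq reads with STAR and counted them with FeatureCounts, and aligned XR-seq and Damage-seq reads with BWA after adapter trimming with cutadapt and marking of duplicates with Picard. The strand setting of the RNA-seq count is not given in the sources used here. The deposited values are raw counts per gene, as 1 total in RNA-seq and as TS and NTS counts in XR-seq and Damage-seq. The paper names ENSEMBL gene annotations for the split into strands. Gene positions, exon lengths and overlaps were taken here from GENCODE M21 (GRCm38), which held 25041 of the 25059 RNA-seq genes.

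Counts were analysed in edgeR 4.0.16 under R 4.3.3 with quasi-likelihood fits, TMM normalisation and a filter on low counts. Figures were drawn with matplotlib 3.10.9. The RNA response to cisplatin was tested in each organ against a log2 change of 0.4, and organ levels and differences of response in 1 fit over the 14 RNA-seq samples. Strands were compared with the library as a block and the GG count of each strand as offset, with genes of fewer than 10 GG per strand left out. DNA levels were compared between organs for each strand. RNA-seq control pairs whose dispersion index was at most 3 were summed. P-values were adjusted by Benjamini-Hochberg over all genes tested. The alternatives were DESeq2 1.42.0, other normalisations, filters and thresholds, the control arm alone, and leaving out each library. The RNA response fits, the XR-seq strand fit and the call of genes high in spleen by RNA were tested on simulated counts with known changes. DESeq2, the differences of response, the DNA levels between organs and the other steps were not.

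The members and gene lists were chosen with earlier results of these data known. Values in every library were given for members passing the response test, or the 4 with the smallest p per organ, for the 3 members with the highest control RPKM among those high in an organ, and for the 2 highest and 2 lowest XR-seq strand ratios per organ among members with at least 20 reads. Of other listed genes, at most 4 per organ that passed were named. A further listed gene is not reported here. Cebpd, and the members named for their levels, XR-seq organ differences, Damage-seq calls or calls without 1 library, were named after their values were seen.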

Additional observations from a re-analysis of the deposited data

How the results depend on the processing

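Of 500 recomputed counts of members, 431 stayed within 1.5 times the reported count, 69 moved, and no called direction reversed. In kidney, 1 member (Cd68) was higher without the filter on low counts, in the test against 0 and with the replicate block. In liver, 1 member (Marco) was higher with the block. In lung, members called higher numbered 1 without the filter, 3 with the block and 2 with each library as a replicate, and members called lower numbered 3 in DESeq2, 5 without the filter, 3 in the test against 0, 0 in 1 fit over all organs, 5 with the block and 4 with each library as a replicate. In spleen, 1 member (Retnlg) was higher with the block. High TS repair counts were 0 in liver with library totals and 2 in spleen with the block. Higher NTS damage counted 1 member in kidney, 3 in lung and 1 in spleen without the GG offset, and 1 in liver and 0 in lung in the test against 0.4. The cause was not tested. When 1 library was left out, counts ran from 0 to 2 for kidney higher, 0 to 1 for liver higher, 0 to 5 for liver lower and 0 to 1 for lung lower. For XR-seq levels in spleen they ran from 0 to 5 on the TS and 0 to 2 on the NTS. For XR-seq strands they ran from 4 to 11 (TS) and 0 to 5 (NTS) in kidney, 1 to 8 and 1 to 2 in liver, 3 to 13 and 0 to 3 in lung, and 3 to 14 and 0 to 1 in spleen. For NTS damage they ran from 1 to 3 in liver, 1 to 2 in lung and 0 to 1 in spleen.

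The labels name no animal, litter, batch or day that samples with the same replicate number share. The paper adjusted for batch with ComBat, but no batch is given in the labels used here. Whether same-numbered samples belong together is therefore not known. Deviations of same-numbered RNA-seq samples from their group means correlated at 0.0988 in lung, 0.242 in spleen, 0.519 in liver and 0.642 in kidney, with 2 pairs per organ. With the block, Cd68 in kidney had a log2 difference of 1.37 (adjusted p = 3.46e-04), and Timd4 was no longer high in spleen (0.80, adjusted p = 0.123). Over all genes and alternatives, calls from 372 higher and 410 lower in kidney ran from 95 to 1467 and 28 to 1715. From 0 and 0 in liver they ran up to 553 and 1287, from 24 and 357 in lung they ran from 0 to 382 and 0 to 1532, and from 29 and 3 in spleen they ran from 18 to 93 and 2 to 83. With the controls alone, genes high in lung went from 1884 to 1149 and in spleen from 2914 to 1310. High TS repair in liver went from 1608 to 1055 genes and high NTS repair in kidney from 97 to 187. High damage in kidney went from 96 to 219 genes on the TS and from 57 to 181 on the NTS. Higher NTS damage went from 4344 to 1559 genes in kidney, 5639 to 3413 in lung and 2731 to 1258 in spleen, and higher TS damage from 84 to 16 or 160 in kidney, 202 to 120 in liver, 314 to 113 in lung and 122 to 38 or 267 in spleen. Without 1 library, high TS repair ran from 366 to 770 genes in spleen, 279 to 531 in lung, 1017 to 1991 in liver and 352 to 599 in kidney. High NTS repair ran from 39 to 339, 23 to 262, 156 to 781 and 34 to 214 in the same order, higher NTS than TS repair from 812 to 1603, 670 to 1697, 496 to 1655 and 825 to 1600, higher NTS damage from 668 to 3072, 4033 to 5682, 3948 to 7071 and 145 to 5047, and higher TS damage from 24 to 163, 275 to 342, 70 to 251 and 3 to 137. High damage in kidney ran from 11 to 99 on the TS and 6 to 88 on the NTS. Most members had few reads in the DNA assays, with 2 libraries per organ, and the smallest difference that these could show was not determined.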
